A study of Mus musculus with 2 samples.

Results

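Serotonin-type enteroendocrine cells are the hormone cells of the gut lining that make serotonin, and 82 of them were found in mouse colon, 30 in the library of Alzheimer's disease (AD) model mice and 52 in the library of wild-type (WT) mice. They came from 9669 barcodes kept in all, 6395 in the AD library and 3274 in the WT library, each kept barcode having at least 200 detected genes and at most 50% of its UMIs (unique molecular identifiers, one per captured transcript) from mitochondrial genes. The members were chosen by measured values. Each had to show at least 3 of the 8 endocrine markers Chga, Chgb, Scg3, Scg5, Scgn, Neurod1, Fev and Pax6, at least 2 UMIs of Tph1, and more Tph1 UMIs than UMIs of the peptide hormones Insl5, Gcg and Pyy together. The study profiled colon of transgenic AD model mice, named APP/PS1-21 in the series' design text, and of WT mice by droplet-based single-cell RNA sequencing of minced, trypsin-digested tissue, with tuft cells of the epithelium as its main subject. The APP/PS1-21 line carries mutant human amyloid precursor protein and presenilin transgenes driven by a neuronal promoter. Each genotype had 1 library, and the age, sex and number of animals behind each library were not given in the labels. No spread between animals was measured, so every AD and WT difference below is a difference between 2 libraries, with no test. Parentheses after a value give its exact 95% interval, which covers counting error only.

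Enterochromaffin cells, the classical name of these cells, hold most of the serotonin of the body. Tryptophan hydroxylase, encoded by Tph1 in the gut, makes the rate-limiting step from tryptophan, aromatic amino acid decarboxylase (Ddc) completes serotonin, the vesicular monoamine transporter VMAT1 (Slc18a1) loads it into granules, and monoamine oxidases break it down. The cells release serotonin onto sensory nerve endings and neighbouring epithelium when they are stretched or meet irritants and microbial products, and the cation channel Piezo2 is their best known force sensor. Many also make a second messenger peptide, such as substance P from Tac1 or secretin from Sct. The L-type cells of the colon, which make peptide YY, glucagon-like peptides and Insl5, are another enteroendocrine type and are used here for comparison.

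The promoters of the 3 transmitter genes on which the results turn are printed first, because Tph1 chose the cells and Sct and Tac1 are their second messengers. Tph1 lies on the minus strand of chromosome 7 (chr7:46644641-46672537), Sct on the minus strand of the same chromosome (chr7:141278329-141279174) and Tac1 on the plus strand of chromosome 6 (chr6:7555061-7562978), in RefSeq's annotation of GRCm38.p6, the assembly that mm10 names. Each sequence runs 5′ to 3′ on the gene's strand from 250 bases before to 50 bases after an annotated start, and capitals mark TGACG or its reverse complement CGTCA, the half-site of the cyclic AMP response element. The windows are chr7:46672488-46672787 and chr7:46667328-46667627 for the upstream and downstream Tph1 starts, chr7:141279084-141279383 for Sct and chr6:7554811-7555110 for Tac1.
Tph1 upstream start: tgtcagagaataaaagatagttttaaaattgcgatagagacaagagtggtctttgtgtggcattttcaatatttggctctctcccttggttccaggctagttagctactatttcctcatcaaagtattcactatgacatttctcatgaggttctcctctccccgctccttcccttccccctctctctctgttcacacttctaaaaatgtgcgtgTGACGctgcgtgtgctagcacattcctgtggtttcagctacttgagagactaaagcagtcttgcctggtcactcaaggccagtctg
Tph1 downstream start: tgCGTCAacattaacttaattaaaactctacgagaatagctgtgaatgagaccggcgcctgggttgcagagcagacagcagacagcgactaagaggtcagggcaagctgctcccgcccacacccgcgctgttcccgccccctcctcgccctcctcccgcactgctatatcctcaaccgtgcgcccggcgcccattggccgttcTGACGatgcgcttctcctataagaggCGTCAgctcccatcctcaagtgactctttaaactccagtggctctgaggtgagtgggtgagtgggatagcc
Sct: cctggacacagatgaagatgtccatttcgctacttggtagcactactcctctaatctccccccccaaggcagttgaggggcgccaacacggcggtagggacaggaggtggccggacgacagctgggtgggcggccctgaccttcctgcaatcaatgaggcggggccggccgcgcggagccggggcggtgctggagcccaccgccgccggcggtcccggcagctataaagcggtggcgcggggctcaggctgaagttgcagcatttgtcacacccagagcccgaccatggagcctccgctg
Tac1: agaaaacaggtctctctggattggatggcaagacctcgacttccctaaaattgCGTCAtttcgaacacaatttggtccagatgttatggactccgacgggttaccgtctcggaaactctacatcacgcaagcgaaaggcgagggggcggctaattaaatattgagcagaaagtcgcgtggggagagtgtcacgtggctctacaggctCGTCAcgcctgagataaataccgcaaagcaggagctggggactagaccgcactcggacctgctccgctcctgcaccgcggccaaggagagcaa
The half-site was present 1 time at the upstream Tph1 start, 3 times at the downstream one, 0 times at Sct and 2 times at Tac1, and 20.8% of all 32851 promoter windows of this length held it on either strand. The E-box CAGATG, a motif of basic helix-loop-helix factors, was present 1 time each at Sct and Tac1 and 0 times at both Tph1 starts, against 17.2% of all windows. The letters TATAAA were present only at Sct, 1 time, among these 4 windows, and in 13.6% of all windows. These matches describe letters, and no binding was measured.

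Genes that the rule did not use went with the label. Lmx1a, a transcription factor of this cell type, had a UMI in 27 of 30 AD and 41 of 52 WT members, against 1 of 21 AD and 1 of 8 WT L-type cells. Slc18a1 had one in 27 of 30 AD and 45 of 52 WT members, against 1 of 21 AD and 0 of 8 WT L-type cells. Ddc, seen in 30 of 30 AD and 45 of 52 WT members, was also seen in 14 of 21 AD and 7 of 8 WT L-type cells, so its detection does not mark these cells off. Of the markers in the rule, Chga and Chgb, the chromogranins of the dense-core granule, were detected in all 82 members. Fev, the transcription factor shared with serotonin neurons, was detected in 23 of 30 AD and 34 of 52 WT members. Neurod1 had no UMI in any barcode of either library, so the rule rested on the other 7 markers. Of 11 markers of mast cells, the other Tph1 cells of the gut, 8 were at 0 in each library, among them Cpa3, Ms4a2, Fcer1a and Mcpt1 in both, and their sum was 50.3 CPM in AD and 62.1 CPM in WT (CPM is the usual depth-scaled unit, here a gene's UMIs scaled to the summed UMIs of the cells). Members were deep cells, with 1095, 9559 and 32773 UMIs (lowest, median, highest) in the AD library and 872, 8098 and 44176 in the WT library, for sums of 377490 and 612192 UMIs. Medians over all kept barcodes were 2829 UMIs with 12.27% mitochondrial in the AD library and 3256 UMIs with 26.98% mitochondrial in the WT library, whereas members had like mitochondrial medians of 10.47% in AD and 10.63% in WT. The libraries shared 7 barcodes, none of them a member. At the Tph1 threshold, 4 AD and 7 WT members had exactly 2 UMIs, and 7 AD and 1 WT enteroendocrine barcodes stood just outside with 1. At the marker threshold, 5 AD and 13 WT members had exactly 3 markers, and 10 AD and 9 WT barcodes that met the Tph1 conditions stood just outside with 2.

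Serotonin-type cells took a smaller share of the AD library than of the WT library. They were 0.469% (0.317 to 0.669) of kept barcodes in AD and 1.59% (1.19 to 2.08) in WT, a ratio of 0.295 (0.182 to 0.472). Among kept barcodes with a UMI of the epithelial gene Epcam the shares were 0.872% (28 of 3212) in AD and 2.41% (45 of 1869) in WT, a ratio of 0.362 (0.218 to 0.593). Within the enteroendocrine lineage, that is barcodes with at least 3 of the 8 markers, they were 44.8% (30 of 67, 32.6 to 57.4) in AD and 80.0% (52 of 65, 68.2 to 88.9) in WT. L-type cells had the larger share in AD in that denominator, with 31.3% (21 of 67) in AD and 12.3% (8 of 65) in WT. As a share of all kept barcodes, L-type cells were 0.328% in AD and 0.244% in WT, with a ratio whose interval (0.572 to 3.51) spanned 1. Barcodes of neither type were 16 of 67 in AD and 5 of 65 in WT, and 8 AD and 4 WT of them had no UMI of Tph1 or of the 3 L-type hormones. With 1 library a genotype, the library and the genotype cannot be told apart. The median mitochondrial share of all kept barcodes also differed between the libraries, as given above, and at a limit of 25% mitochondrial UMIs the ratio of the serotonin-type share of kept barcodes was 0.215.

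**Figure D1:**
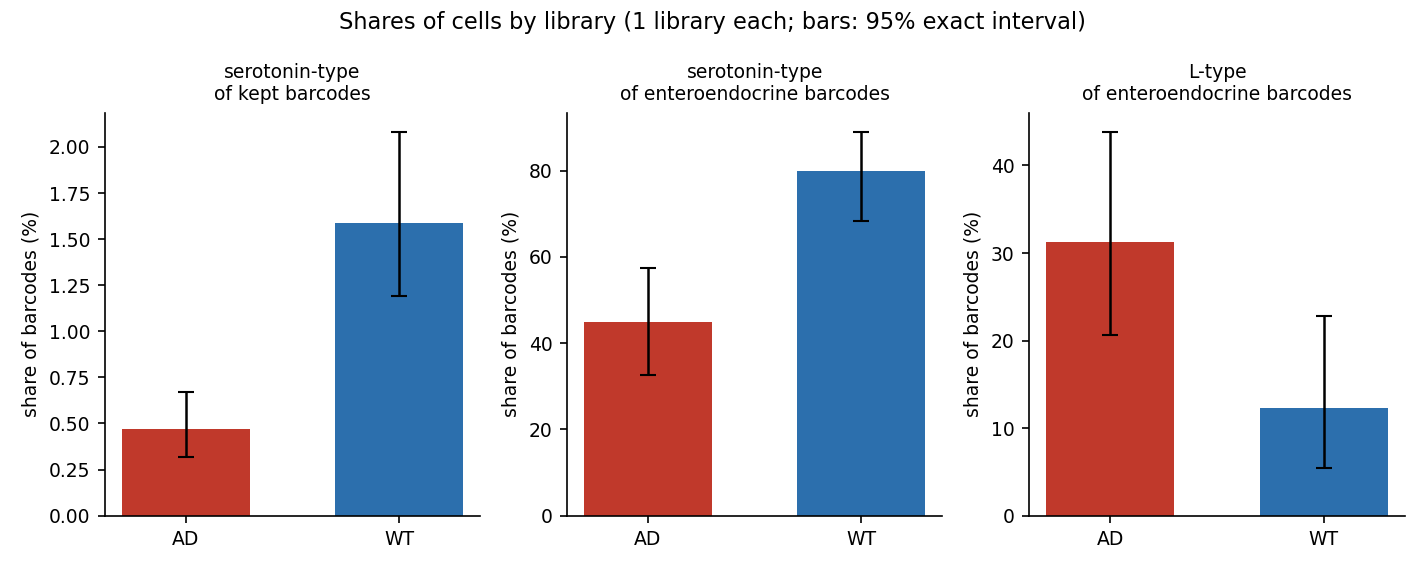
Share of serotonin-type cells among kept barcodes and among enteroendocrine barcodes, and of L-type cells among enteroendocrine barcodes, in percent, for the AD (left) and WT (right) library, 1 library each; error bars are exact 95% intervals. The serotonin-type share was lower in AD on both denominators, 0.469% against 1.59% and 44.8% against 80.0%, while the L-type share was 31.3% in AD against 12.3% in WT.

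The better-counted genes of the serotonin pathway differed by less than 2-fold between the libraries, as most genes did. Leaving out Tph1, which chose the cells, 11 pathway genes reached 30 UMIs over the 2 libraries (the minimum for these counts). Of the 11, 0 were at least 2-fold higher and 0 at least 2-fold lower in AD. Among the 5308 genes that reached that minimum, 5.33% were higher and 4.56% lower. For 11 genes, 0 each way is near those shares and does not set the pathway apart. The median log2 ratio of the 11 genes, AD over WT, was −0.11, beside 0.07 over all 5308. The level of Tph1 is given only as a description. It had 2, 10 and 71 UMIs per cell (lowest, median, highest) in AD members and 2, 19.5 and 110 in WT members, or 1126 CPM in AD and 2241 CPM in WT. Ddc, the decarboxylase, stood at 1118 CPM in AD and 995 CPM in WT, and Gch1, which starts synthesis of the tetrahydrobiopterin cofactor, at 167 CPM in both. Slc18a1, the granule transporter, was at 225 CPM in AD and 372 CPM in WT (log2 −0.72, −1.10 to −0.36), and among cells with a Piezo2 UMI alone its log2 ratio was −0.12. Of the breakdown enzymes, Maoa was at 233 CPM in AD and 216 CPM in WT, and Maob at 79.5 and 44.1 CPM in AD and WT (log2 0.85, 0.05 to 1.66). The neuronal hydroxylase Tph2 had 0 UMIs in either library, and the serotonin reuptake transporter Slc6a4 had 1 UMI in AD and 5 in WT.

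Among the 3 hormone genes with 30 UMIs, Sct, Tac1 and Guca2a, secretin (Sct) differed most. Sct had 0, 0 and 12 UMIs per cell (lowest, median, highest) in AD members and 0, 3 and 148 in WT members. Summed, that was 32 UMIs or 84.8 CPM in AD and 737 UMIs or 1204 CPM in WT, a log2 ratio of −3.81 (−4.39 to −3.32). At least 10 Sct UMIs were found in 1 of 30 AD and 16 of 52 WT members, although the ranges overlapped because 14 WT members had none. A Sct UMI was seen in 10 of 30 AD and 38 of 52 WT members, and after each cell was thinned to 1000 UMIs in 1 of 30 AD and 24 of 51 WT members. In immune barcodes, which should lack the gene, it was seen in 0.275% at a median depth of 2671 UMIs in AD and in 0.592% at 3063 UMIs in WT. The 3 highest WT cells held 50.3% of the WT Sct UMIs, and leaving out the highest cell of each library gave a log2 ratio of −4.14. The summed level of Sct was lower in AD outside the members as well. Its log2 ratios were −1.42 in L-type cells and −1.73 in all other kept barcodes, which include those L-type cells. The share of L-type cells with a Sct UMI was not lower in AD, at 16 of 21 AD and 5 of 8 WT cells.

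Substance P showed no such gap, and most other hormones were at or near 0. Tac1 had 0, 2 and 47 UMIs per cell in AD members and 0, 0.5 and 37 in WT members, and its sums were 403 CPM in AD and 315 CPM in WT (log2 0.35, 0.04 to 0.67). After thinning, 10 of 30 AD and 11 of 51 WT members showed a Tac1 UMI, and with another random seed 6 of 30 AD and 10 of 51 WT members did. Sct and Tac1 were seen together in 4 AD and 15 WT members, and neither was seen in 5 AD and 3 WT members. Cck, Nts, Sst and Gal, peptides of other endocrine cells, had 0 UMIs in members of both libraries. After thinning to 1000 UMIs this leaves room for up to 11.6% of AD and 6.98% of WT cells with a UMI, which is no limit on cells that express the gene. The L-type hormones Pyy, Gcg and Insl5, which the rule limits, gave 4 UMIs in AD and 1 in WT. Guca2a, the guanylate cyclase ligand guanylin, was at 209 CPM in AD and 247 CPM in WT. Cartpt, a neuropeptide precursor, had 20 UMIs in AD, all in 2 cells, and 0 in WT, at least 10.8-fold higher against a floor of 3 counts over the WT cells.

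**Figure D2:**
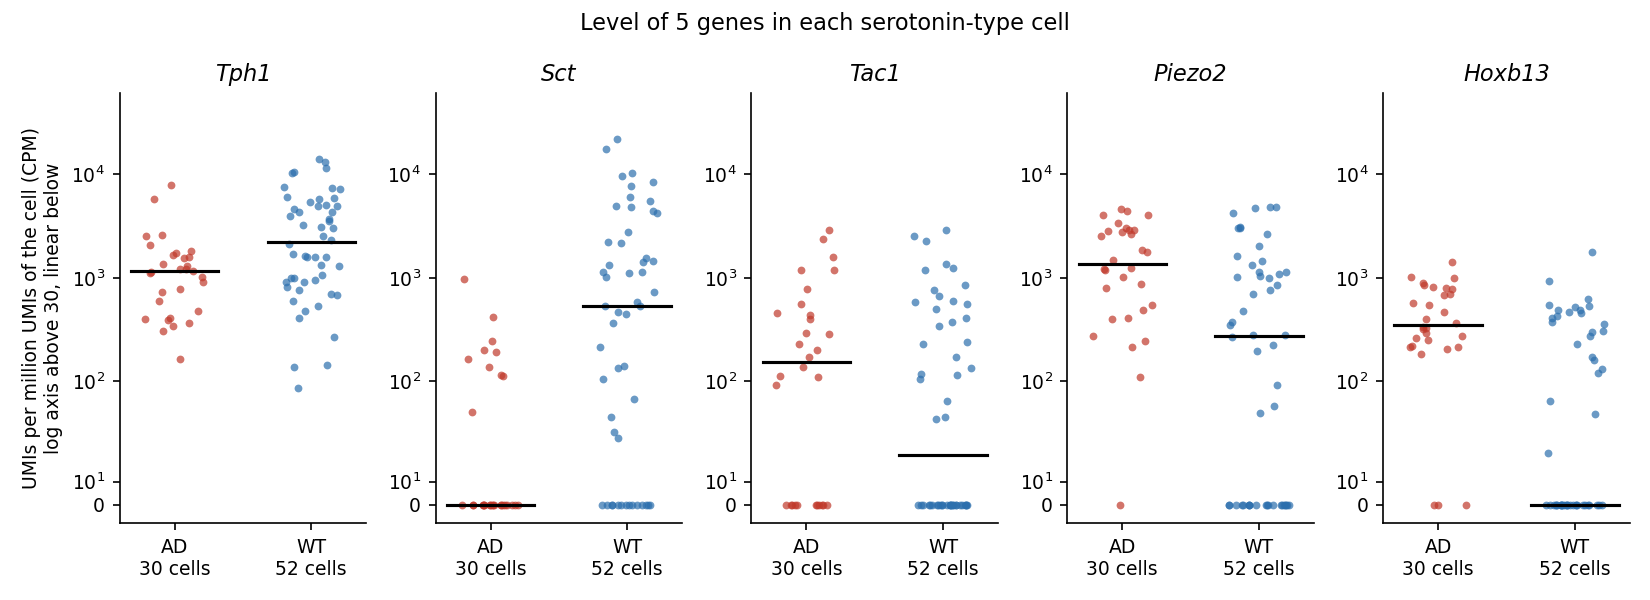
Level of Tph1, Sct, Tac1, Piezo2 and Hoxb13 in each serotonin-type cell of the AD (left) and WT (right) library, as CPM of the cell (log axis above 30, linear below); each point is 1 cell and the bar is the median over cells. Sct was at 0 in 20 of 30 AD cells, and Hoxb13 was at 0 in 3 of 30 AD cells against 27 of 52 WT cells.

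Members with and without Piezo2 differed in the WT library, and all but 1 of the AD members had Piezo2. Piezo2, the force-gated channel, had a UMI in 29 of 30 AD and 32 of 52 WT members, and after thinning in 21 of 30 AD and 17 of 51 WT members. Immune barcodes showed a Piezo2 UMI in 1.10% in AD and 0.296% in WT. Its sums were 1216 CPM in AD and 805 CPM in WT (log2 0.59). The 20 WT members without Piezo2 held Sct at 4589 CPM (4226 to 4975), against 306 CPM (259 to 359) in the 32 WT members with it. At least 10 Sct UMIs were found in 11 of the 20 and in 5 of the 32. The 29 AD members with Piezo2 held Sct at 85.1 CPM, so among Piezo2 cells alone the AD over WT log2 ratio of Sct was −1.83. The Piezo2-negative WT cells were shallower, with a median of 4625 UMIs against 11803 in the Piezo2-positive ones, and 7 WT members had only 1 or 2 Piezo2 UMIs, so the line between them is not sharp.

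The Piezo2-negative WT cells also carried more of some secretory genes per UMI. Slc18a1, which the rule did not use, was at 857 CPM in them against 244 CPM in Piezo2-positive WT cells. Tph1 was at 4090 against 1751 CPM and Chgb at 40239 against 13839 CPM, but both entered the rule. A minimum of 2 Tph1 UMIs is a higher CPM in a shallower cell, so the values of these 2 genes are only descriptions. Or51e1, a receptor for short branched fatty acids, was at 187 against 22.7 CPM. Asic2, an acid-sensing sodium channel, was at 982 against 66.1 CPM, and Pde11a, a cyclic nucleotide phosphodiesterase, at 397 against 37.2 CPM. In the other direction, the chromatin factor Tox3 was at 46.7 against 172 CPM. Ddc was at 927 against 1013 CPM, and Tac1 was at 631 against 231 CPM. Since Piezo2 divided these cells after its values were seen, these are descriptions of cells within 1 library.

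Hoxb13, a homeobox gene of the distal hindgut that was looked at after its values were seen, followed the same line. It had 0 UMIs in the 20 Piezo2-negative WT cells and 134 UMIs in 25 of the 32 Piezo2-positive ones, at least 11.8-fold lower in the Piezo2-negative cells against a floor of 3 counts over them. In AD members it had a UMI in 27 of 30 cells, against 25 of 52 WT members, at 440 CPM in AD and 219 CPM in WT. Among Epcam barcodes outside the enteroendocrine ones, Hoxb13 was seen in 46.5% (44.8 to 48.3) in AD and in 34.0% (31.8 to 36.2) in WT. L-type cells showed it in like shares, 16 of 21 AD and 6 of 8 WT cells, at 324 CPM in AD and 195 CPM in WT. None of these Hoxb13 shares was thinned to equal depth. In WT members with a Hoxb13 UMI, Sct was at 184 CPM, and in those without at 3593 CPM, while AD members with one held Sct at 86.0 CPM. Sct, Piezo2 and Hoxb13 thus differed together between WT cells and between libraries. The pattern was not seen between AD cells. Only 1 AD member lacked Piezo2, all 10 with a Sct UMI had Piezo2, and the 3 without Hoxb13 had 0 Sct UMIs. The colon region behind each library was not given in the labels, and the part of these shifts in the Sct and share differences was not tested.

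**Figure D3:**
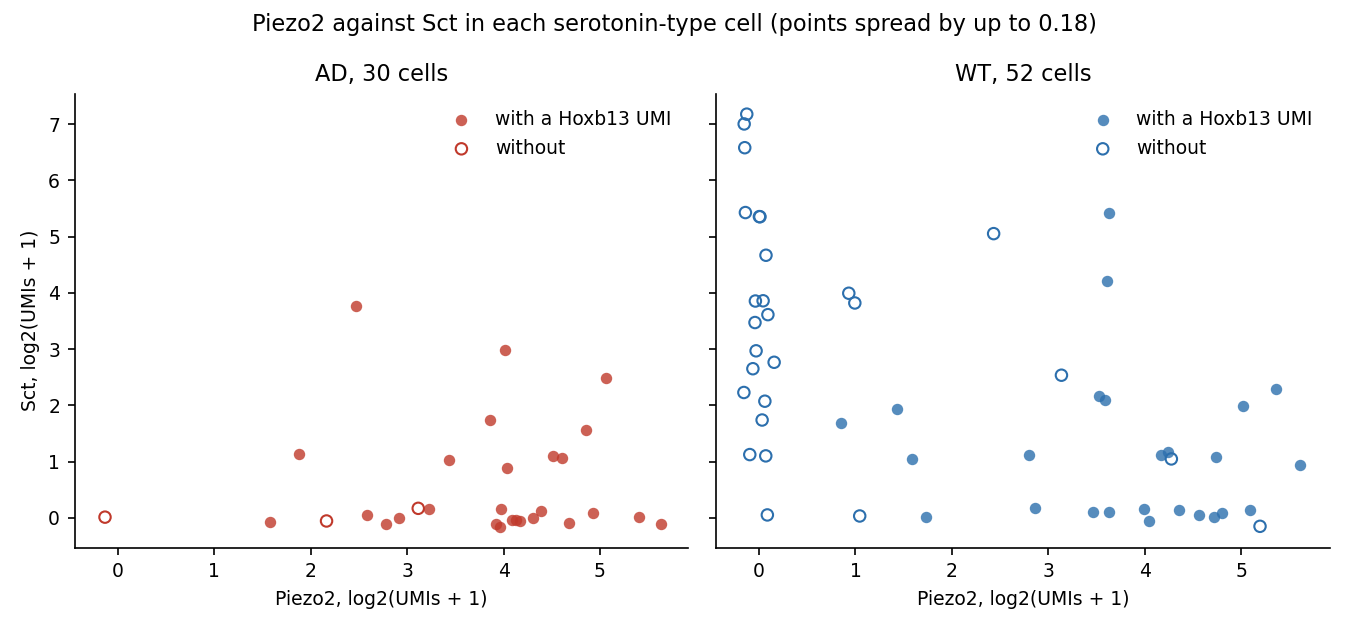
Piezo2 against Sct in each serotonin-type cell, as log2(UMIs + 1), for the AD (left) and WT (right) library; filled points have a Hoxb13 UMI, open points have none, and points are spread by up to 0.18 to separate ties. Of the WT cells, 20 lie at 0 Piezo2, all without Hoxb13 and 19 of them with Sct, whereas 1 of 30 AD cells lies there.

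Of 17 lineage transcription factors with 30 UMIs that the rule did not use, 2 (11.8%) were at least 2-fold higher in AD and 0 lower, against 5.33% higher and 4.56% lower over all genes, and their median log2 ratio was 0.14. Tox3 was at 307 CPM in AD and 145 CPM in WT (log2 1.08, 0.67 to 1.49). Egr3, an activity-induced zinc finger factor, was at 167 CPM in AD and 81.7 CPM in WT (log2 1.03), and without the highest cell of each library its log2 ratio was 2.17. Among Piezo2 cells alone both were under 2-fold: Tox3 at 308 and 172 CPM in AD and WT, Egr3 at 162 and 86.8 CPM. Lmx1a, the factor that drives Tph1 in these cells, was at 201 CPM in AD and 312 CPM in WT (log2 −0.63), and Fev at 196 CPM in AD and 136 CPM in WT (log2 0.53). Insm1, a zinc finger factor of endocrine differentiation, was at 413 CPM in AD and 284 CPM in WT (log2 0.54), and Nkx2-2 at 101 CPM in AD and 91.5 CPM in WT. Isl1, a factor of peptide-hormone cells, had 0 UMIs in members of both libraries.

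Of 23 sensors, channels and receptors, 1 (4.35%) was at least 2-fold higher and 2 (8.70%) lower in AD, against 5.33% and 4.56% of all genes, with a median log2 ratio of 0.43. Chrm3, a muscarinic acetylcholine receptor, was at 84.8 CPM in AD and 37.6 CPM in WT (log2 1.17, 0.36 to 2.01). Cacna2d1, a calcium channel subunit, was at 225 CPM in AD and 523 CPM in WT (log2 −1.21, −1.58 to −0.87). Among Piezo2 cells alone it was at 223 CPM in AD and 409 CPM in WT, under 2-fold. Or51e1 had 5 UMIs in AD, all in 1 cell, and 35 UMIs in 12 WT cells, with a log2 ratio of −1.99 that was −0.70 among Piezo2 cells alone. Of 17 granule and prohormone-processing genes that the rule did not use, 0 were at least 2-fold higher and 2 (11.8%) lower in AD, with a median log2 ratio of −0.17. These were Ptprn, a granule membrane protein, with 12 UMIs in AD and 49 in WT (log2 −1.29), and Resp18, a granule protein, with 37 in AD and 133 in WT (log2 −1.13, and −0.55 among Piezo2 cells). Among Piezo2 cells alone Ptprn was at 31.9 CPM in AD and 64.1 CPM in WT, close to the 2-fold limit. Of 25 exocytosis genes, 1 was higher and 0 lower in AD: Stxbp5l, a tomosyn that restrains vesicle fusion, at 313 CPM in AD and 154 CPM in WT (log2 1.02, 0.62 to 1.43).

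Energy, stress and growth genes were examined as lists, beside shares over all genes of 5.33% at least 2-fold higher and 4.56% lower. Of 32 nuclear genes of the mitochondrial respiratory chain, 0 were at least 2-fold higher and 3 (9.38%) lower in AD, with a median log2 ratio of −0.37. Ratios below 0 were found for 27 of the 32, beside 2383 of 5308 over all genes. The 3 lower genes were Ndufv1 of complex I (log2 −1.27), Uqcrc1 of complex III (−1.17) and Cox5a of complex IV (−1.04). In all other kept barcodes the median of these 32 genes was −0.15. Of 25 immediate early and dissociation genes, 4 were higher (Egr3, Fosb, Klf2 and Egr2) and 2 lower, with a median of 0.46 beside 0.40 in all other kept barcodes. Fosb, an AP-1 subunit, was at 2665 CPM in AD and 1318 CPM in WT. The 2 lower genes were heat shock genes, Hspb1 at 15.9 CPM in AD and 168 CPM in WT (log2 −3.30) and Hspa1b at 601 CPM in AD and 2091 CPM in WT (log2 −1.80). Of 18 unfolded protein response genes, 1 (5.56%) was higher (Herpud1, log2 1.02) and 1 (5.56%) lower (the sensor Ern1, log2 −1.25, and −0.54 among Piezo2 cells). Both shares were near those over all genes. The division marker Mki67 had 15 UMIs in 3 of 30 AD members and 58 UMIs in 12 of 52 WT members, for a log2 ratio of −1.22, and with cells over 25% mitochondrial UMIs left out the ratio was −0.23. After thinning to 1000 UMIs Mki67 was seen in 3 of 30 AD and 3 of 51 WT members. With another random seed it was seen in 1 of 30 AD and 0 of 51 WT members. These counts are too low to compare the shares of cells with Mki67 at equal depth. Top2a, a topoisomerase of dividing cells, had 8 UMIs in 2 AD cells and 58 in 9 WT cells (log2 −2.09, and −4.28 without the highest cell of each library). Both were lower in AD in all other kept barcodes as well, at log2 ratios of −0.86 for Mki67 and −1.24 for Top2a.

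**Figure D4:**
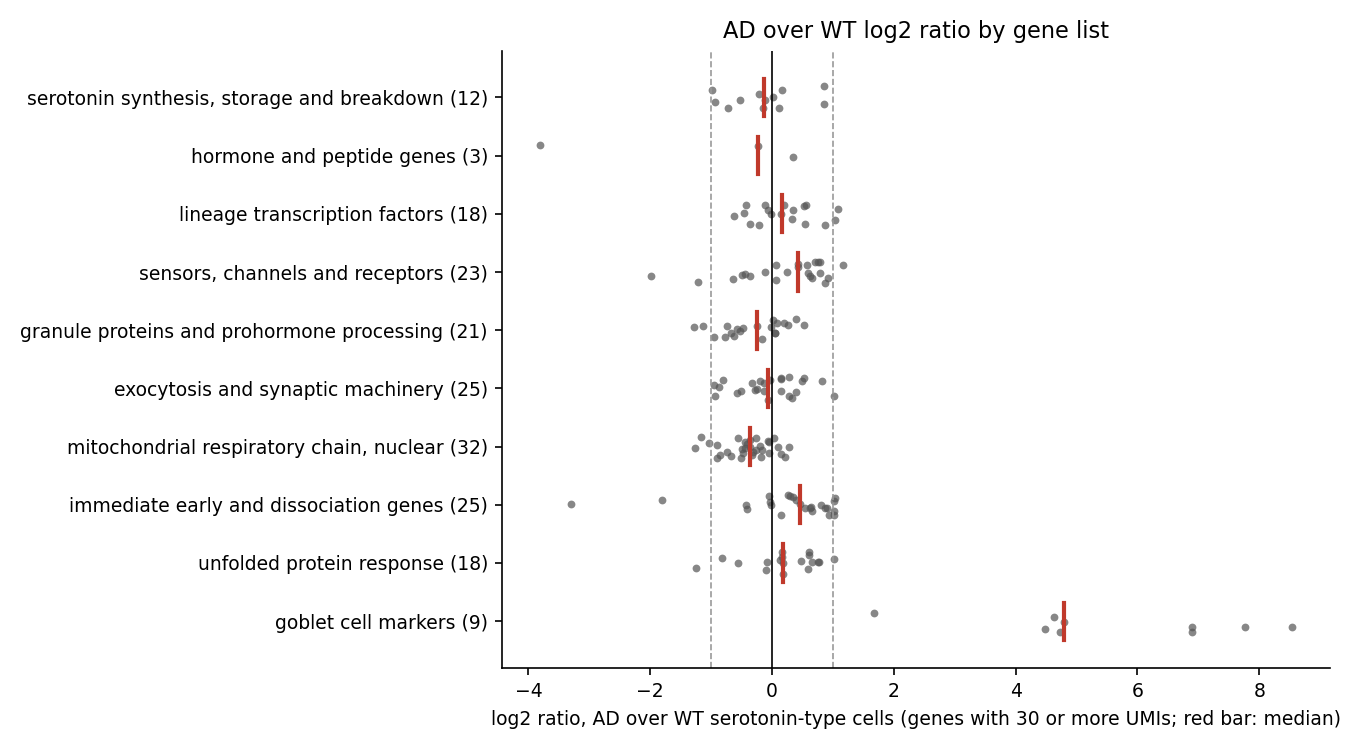
Log2 ratio, AD over WT, of every gene with at least 30 UMIs in serotonin-type cells, for 10 gene lists (number of genes in brackets, genes of the rule included); red bars are list medians, dashed lines the 2-fold limits. All 9 goblet genes lie above the upper limit with a median of 4.79, the other 9 lists drawn have medians between −0.37 and 0.46, and Sct is the far left point of the hormone list.

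Goblet and plasma cell transcripts differed more than any endocrine list. All 9 goblet cell markers with 30 UMIs were at least 2-fold higher in AD members, against 5.33% of all genes. The sum of the goblet markers was 27082 CPM in AD and 446 CPM in WT. Goblet UMIs made up a median of 0.0846% of a cell's UMIs in AD members and 0.0360% in WT members, where the highest cell had 0.363%. Over 1% was reached in 4 AD cells and 0 WT cells. Muc2, the gel-forming mucin, was at 1693 CPM in AD and 60.4 CPM in WT. Immune barcodes also held more goblet UMIs in AD, 1233 CPM against 387 CPM in WT. Igha, the heavy chain of immunoglobulin A made by plasma cells, had a UMI in all 30 AD members and in 33 of 52 WT members, at 1698 CPM in AD and 111 CPM in WT. Without the cells over 1% goblet UMIs the log2 ratio of Sct was −3.71, that of Muc2 2.37 and that of Igha 3.96. The part of these transcripts in the other AD and WT differences was not tested. Tuft cell markers were near 0, with 7 UMIs in AD and 71 in WT over 16 genes, and Dclk1 had 0 UMIs in AD and 14 in 3 WT cells. Of 8 colonocyte markers with 30 UMIs, 0 were higher and 2 lower in AD, namely Car4 (0 UMIs in AD, 42 in WT) and Saa1 (1 in AD, 68 in WT), each with a log2 ratio of −2.28 in all other kept barcodes.

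Over all 5308 genes with 30 UMIs, 283 (5.33%) were at least 2-fold higher and 242 (4.56%) at least 2-fold lower in AD members. On simulated counts of 5308 genes with 200 changed 4-fold, 88 unchanged genes also passed the 2-fold limit. Passing it therefore does not by itself mark a gene as different. The 10 highest ratios, leaving out markers of other classes and the gene types named under the processing, belonged to Ang4, Sval1, Egr4, Spink1, Clps, Galnt13, Pck1, Pdp1, Myo5c and Sass6. Ang4, an angiogenin of Paneth and goblet cells, had 442 UMIs in AD and 2 in WT, and its log2 ratio of 8.17 was 2.29 once cells with over 1% goblet UMIs were left out. The ratios of Sval1, Spink1 and Clps were −0.44, 0.05 and −0.62 without those cells. Egr4, an activity-induced factor, had 70 UMIs in 7 AD cells and 2 in 1 WT cell (log2 5.52, 3.92 to 8.90). Pdp1, a pyruvate dehydrogenase phosphatase, had 34 UMIs in 14 AD cells and 9 in 5 WT cells (log2 2.56). Sass6, a centriole assembly protein, had a log2 ratio of 2.46 in members, and in all other kept barcodes it was at 81.3 CPM in AD and 5.82 CPM in WT.

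The 10 lowest ratios belonged to Filip1, Acta1, Reg3b, Pde11a, Sct, Cyp2d34, Hspb1, Ly6a, Asic2 and Ube2c. Filip1, a filamin-binding protein, had 0 UMIs in AD and 47 in 4 WT cells, at least 9.66-fold lower in AD against a floor of 3 counts over the AD cells. Pde11a had 1 UMI in AD and 69 UMIs in 21 WT cells (log2 −4.84), and among Piezo2 cells alone its log2 ratio was −3.26. Asic2 had 15 UMIs in AD and 158 in WT, and its log2 ratio of −2.66 was −0.70 among Piezo2 cells alone. Reg3b, an antimicrobial lectin, had 0 UMIs in AD and 40 in WT, and was lower in all other kept barcodes as well (0.0272 CPM in AD, 143 CPM in WT). Ly6a was also lower there (147 CPM in AD, 294 CPM in WT), whereas Filip1 and Hspb1 had log2 ratios of 0.70 and −0.17 there.

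Serotonin-type and L-type cells were compared within both libraries, in the one comparison that has a test. UMIs were summed per class and library, giving 4 sums, and edgeR's quasi-likelihood test with library as a block left 1 residual degree of freedom. Of 6432 genes with 30 UMIs over the 4 sums, 126 (1.96%) were higher and 102 (1.59%) lower in serotonin-type cells at an adjusted p of 0.05. Genes that chose the cells were not tested. DESeq2 made 24 and 19 calls. Piezo2, Slc18a1, Tac1, Lmx1a, Or51e2, Snap25, Syt7, Fos, Krt20, Etv1, Abcc8, Avpr1b, Uchl1 and Gfra3 were called in all 14 alternatives, and every other gene named below lost its call in at least 1.

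Part of the serotonin machinery separated the classes. Of 11 tested pathway genes, 3 rose in serotonin-type cells, against 1.96% of all tested genes: Slc18a1, Gch1 and Ddc. Slc18a1 was at 225 CPM in AD and 372 CPM in WT serotonin-type cells, against 4.32 CPM in AD and 0 in WT L-type cells (log2 6.53, adjusted p = 8.31e-08 with edgeR). Ddc was at 1118 and 995 CPM in AD and WT serotonin-type cells, against 419 and 403 CPM in AD and WT L-type cells, a 2.52-fold difference over both libraries. Tac1 rose 32.7-fold, with 345 UMIs in serotonin-type cells against 4 in L-type cells. Piezo2 was at 1216 CPM in AD and 805 CPM in WT serotonin-type cells, against 13.0 CPM in AD and 0 in WT L-type cells (log2 6.98, adjusted p = 2.74e-11 with edgeR). Sct did not pass the test (log2 −0.45, adjusted p = 0.758 with edgeR), and its direction differed between libraries, with 84.8 CPM in serotonin-type and 298 CPM in L-type cells of AD, and 1204 and 799 CPM in serotonin-type and L-type cells of WT.

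Of 22 tested lineage factors, 2 rose and 4 fell, against 1.96% and 1.59% of all tested genes. Lmx1a was 14.5-fold higher in serotonin-type cells, and Runx1t1, a transcriptional corepressor, 3.36-fold higher. Isl1, at 104 UMIs in L-type cells, had 0 UMIs in serotonin-type cells, at least 91.4-fold lower against a floor of 3 counts over those cells. Etv1, an ETS factor, was at 5.30 CPM in AD and 9.80 CPM in WT serotonin-type cells, against 855 and 563 CPM in AD and WT L-type cells (adjusted p = 1.81e-11 with edgeR). Mlxipl, a carbohydrate-responsive factor, also fell.

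Receptors set the classes apart in both directions. Of 28 tested sensors, channels and receptors, 5 rose in serotonin-type cells (Piezo2, Or51e1, Or51e2, Npy1r and Scn3a) and 4 fell (Gpr119, Cacna1c, Kcnh7 and Abcc8). Over all tested genes 1.96% rose and 1.59% fell. The call of Kcnh7, a potassium channel, rested on the WT library, with log2 ratios of 0.25 in AD and −5.03 in WT. Or51e2, a receptor for short-chain fatty acids, was at 164 CPM in AD and 158 CPM in WT serotonin-type cells and had 0 UMIs in L-type cells, at least 20.1-fold higher. Scn3a, a voltage-gated sodium channel, was at 726 and 541 CPM in AD and WT serotonin-type cells, against 117 and 264 CPM in AD and WT L-type cells. Gpr119, a lipid receptor that drives peptide release, had 0 UMIs in serotonin-type cells and 40 in L-type cells. Abcc8, the sulfonylurea receptor, had 1 UMI in serotonin-type cells and 58 in L-type cells (adjusted p = 5.63e-08 with edgeR).

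Some genes of the release machinery were higher in serotonin-type cells. The 26 tested exocytosis genes had a median log2 fold change of 0.13, and over all tested genes 1.96% rose and 1.59% fell. Of 26 tested exocytosis genes, 5 rose: Snap25, a SNARE protein, 3.85-fold, Syt7, a slow calcium sensor, 5.79-fold, Cadps, a priming factor, 2.89-fold, Rab27b, a granule GTPase, 3.71-fold, and Rab3c, another, which had 366 UMIs in serotonin-type cells and 0 in L-type cells. Of 19 tested granule genes, 2 rose and 3 fell. The 2 were Gch1 and Rab3c, already counted above in the pathway and exocytosis lists. Among the 3 that fell, Scg2, secretogranin II, had 0 UMIs in serotonin-type cells and 124 in L-type cells. Krt20, a keratin of differentiated epithelium, rose 8.40-fold, and the immediate early gene Fos was at 7166 and 6480 CPM in AD and WT serotonin-type cells, against 2427 and 2453 CPM in AD and WT L-type cells (adjusted p = 1.71e-05 with edgeR).

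The 10 highest called fold changes all had 0 UMIs in L-type cells, and among them were Tafa1, Rab3c, Gsdma, Slc38a11, Or51e2, Sulf1, Stk32a, Ncam2 and Wif1. Tafa1, a secreted chemokine-like protein, was at 236 CPM in AD and 650 CPM in WT serotonin-type cells, at least 61.6-fold higher. Slc38a11, an amino acid transporter, was at 180 CPM in AD and 245 CPM in WT serotonin-type cells. The 10 lowest, all with 0 UMIs in serotonin-type cells, belonged to Cck, Scg2, Ppy, Isl1, Nts, Ghrl, Cyp4x1, Avpr1b, Pld5 and Agtr1a. Cck was at 1524 CPM in AD and 1313 CPM in WT L-type cells, and the vasopressin receptor Avpr1b at 151 CPM in AD and 153 CPM in WT ones. Nts had all its 59 UMIs in WT L-type cells, so its call rested on that library. Zg16, Muc2, Agr2, Spink4 and Retnlb, goblet markers, were called too, and Agr2 and Spink4 changed direction without the cells over 1% goblet UMIs.

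**Figure D5:**
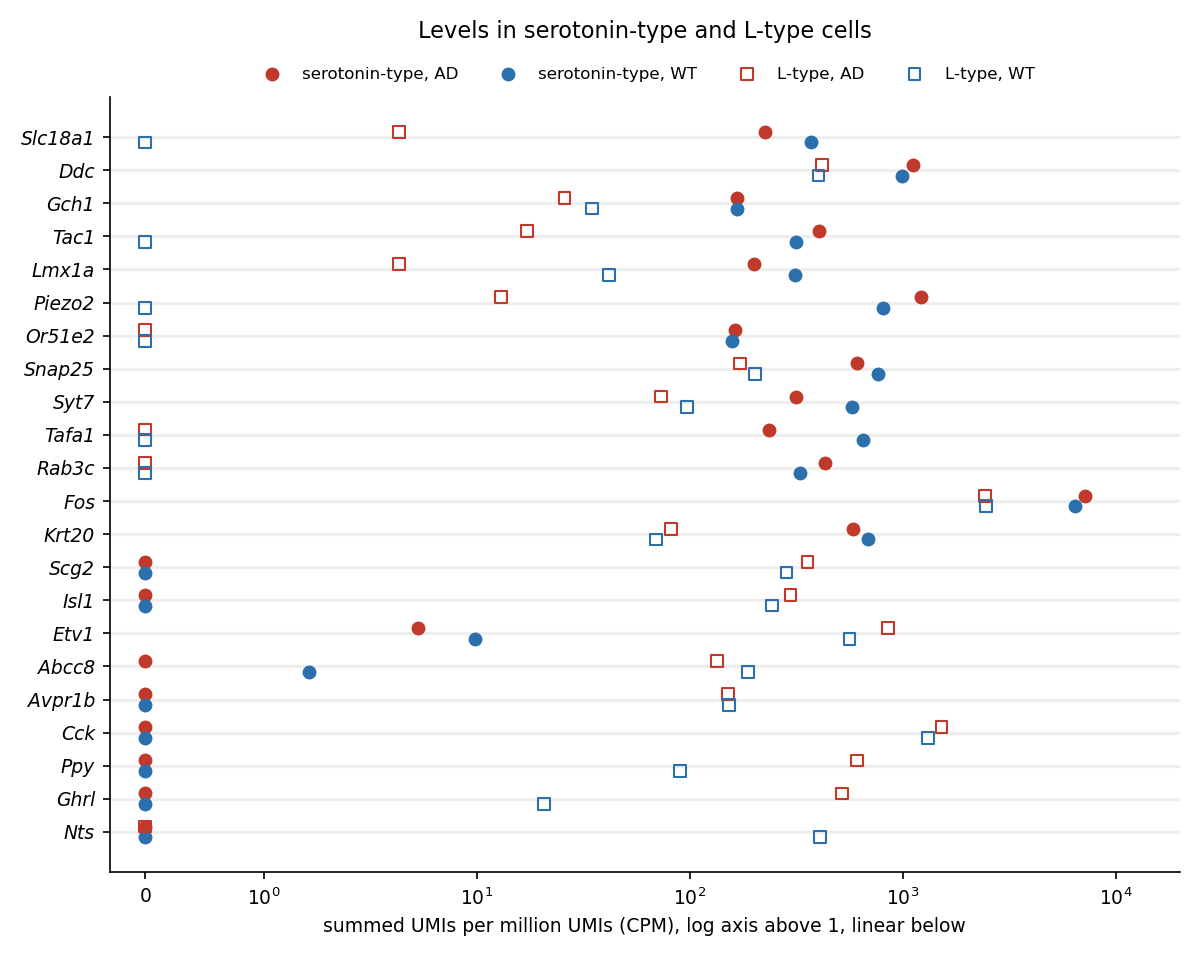
Level of 22 genes in serotonin-type (filled circles) and L-type (open squares) cells of the AD (red, upper) and WT (blue, lower) library, as CPM of the summed cells (log axis above 1, linear below). The genes from Slc18a1 to Krt20 lie to the right in serotonin-type cells and those from Scg2 to Nts in L-type cells, and among L-type cells the libraries differ most in Nts, at 0 in AD and 410 CPM in WT, and Ghrl, at 518 CPM in AD and 20.8 CPM in WT.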

How the data were processed

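Single-cell libraries of colon from AD model and WT mice, 1 each, were analysed. The deposited values are whole UMI counts for each gene and barcode, without normalization, and no barcode held under 500 UMIs. The submitters' processing notes name mm10 and Cell Ranger 3.0.1, as well as Seurat 3.0.2. Library totals were 38731915 UMIs in AD and 26898149 in WT. Members and gene lists were chosen with earlier results of these data known. Counts were summed per class and library, 0.5 counts were added for log2 ratios, and 95% intervals are Clopper-Pearson, Poisson or conditional on the total, with 3 counts as the floor. Immune barcodes (726 AD, 338 WT) had no Epcam or endocrine marker UMI and at least 2 leukocyte markers. L-type cells passed the same filters, with at least 2 UMIs of Insl5, Gcg and Pyy together and no fewer than of Tph1. Class sums were tested with edgeR 4.0.16 (quasi-likelihood, TMM, Benjamini-Hochberg) and, as an alternative, DESeq2 1.42.0, in R 4.3.3. On simulated counts edgeR recovered 173 of 200 genes changed 4-fold and called 2 unchanged genes among 6443. That simulation used a single dispersion for all genes and no library difference, and changed only genes with at least 100 UMIs. These rates need not hold for the real counts. No doublet caller was run. The text may name all serotonin, hormone and lineage genes, the 4 largest AD over WT ratios of each other list with at least 20 UMIs, called list members, and the 10 highest and 10 lowest of each comparison. These ranks omit other classes' markers, unnamed gene models and genes that are sex-linked, mitochondrial or encode ribosomal proteins, immunoglobulins or haemoglobins. Hoxb13, Klf2, Egr2, Dclk1 and the mast cell genes were named after their values were seen. A few genes that the rule would name are not reported here. Python 3.11.15, numpy 2.4.6 and scipy 1.17.1 were used.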

Additional observations from a re-analysis of the deposited data

Results flagged for a closer look

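Spink1 had a log2 ratio, AD over WT, of 4.70 in serotonin-type cells and of −1.51 in all other kept barcodes, so it was at least 2-fold higher in one and at least 2-fold lower in the other. Stxbp5l had a log2 ratio of 1.02 in serotonin-type cells and of −5.17 in L-type cells, with 1 UMI in AD and 33 UMIs in WT L-type cells. Neither difference was tested, since each genotype has 1 library.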

How the results depend on the processing

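With 1 library per genotype, depth and cell number limit these results: the AD values rest on 30 serotonin-type and 21 L-type cells, and genes under 30 UMIs were left out of the counts of 2-fold differences. The AD over WT ratio of the serotonin-type share lay between 0.215 and 0.369 among kept barcodes and between 0.520 and 0.677 among enteroendocrine barcodes over 10 alternatives each, and stayed below 1. No paired analysis was possible because each genotype has 1 library, so the libraries share fewer than 2 replicate numbers. The counts of genes 2-fold higher and 2-fold lower in AD were 504 and 438 by the mean of per-cell CPM, 795 and 870 with at least 10 UMIs, and 56 and 42 with at least 100 UMIs. The counts of genes higher and lower in serotonin-type than in L-type cells were 83 and 52 with at least 4 of 8 endocrine markers, 82 and 64 with no block for library, and 24 and 19 with DESeq2. In 1 library alone, 118 to 120 of the 126 higher and 89 to 97 of the 102 lower genes were at least 2-fold the same way. Both libraries entered the calls of these genes, so this agreement is not independent support. Unthinned, a Sct UMI was seen in 33.3% of AD and 73.1% of WT cells and a Tac1 UMI in 63.3% of AD and 50.0% of WT cells, and thinned to 2000 UMIs a Tac1 UMI in 37.0% of WT cells. Among named genes, the AD over WT log2 ratio changed sign for Clps (−0.62), Sval1 (−0.44) and Zg16 (−1.17) without cells over 1% goblet UMIs, and for Spink1 (−1.09) at a mitochondrial limit of 25% and with at least 4 of 8 markers. Without the goblet-rich cells, the serotonin-type over L-type log2 fold changes of Agr2 and Spink4 were 0.57 and 1.35. The cause of these shifts was not tested. The goblet-rich and Piezo2-only alternatives were chosen after seeing the data.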
